A study of Mus musculus with 8 samples.

Results

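The genes described are receptors for extracellular nucleotides and for adenosine: the ATP-gated channels P2rx4 and P2rx7, the G protein-coupled nucleotide receptors P2ry2, P2ry6, P2ry12, P2ry13 and P2ry14, and the adenosine receptors Adora2a, Adora2b and Adora3. They were picked by symbol from a Mouse Gene 1.0 ST array, taking probe sets (groups of probes read as 1 value) that the platform annotation gives to exactly 1 gene. Of the 10 listed receptors, 7 were measured in this way, among 19938 named genes. The 3 adenosine receptors are not reported as genes, because the only probe set naming Adora3 also names Tmigd3, and no probe set of the annotation used here names Adora2a or Adora2b. Each of the 7 measured receptors had 1 probe set, so no choice between probe sets was needed.

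RNA came from mouse bone marrow-derived cells labelled BMDM (bone marrow-derived macrophages), on 8 arrays in 4 groups of 2, all at 6 h: untreated cells, cells given IFN-gamma with LPS (IFN-gamma/LPS), cells given IL-4 with IL-13 (IL-4/IL-13), and cells given LPS with IL-4 and IL-13 (LPS/IL-4/IL-13). LPS is a bacterial cell wall lipid sensed by Toll-like receptor 4, IFN-gamma is the classical macrophage-activating cytokine, and IL-4 and IL-13 are type 2 cytokines that drive alternative activation. The labels give no mouse strain, age or dose. Since LPS was always given with IFN-gamma or with IL-4 and IL-13, the 2 groups with LPS differ in all of these cytokines. Separate cultures or animals are not stated for the arrays of a group, so the spread behind each p-value may be technical.

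Dying, stressed and activated cells release ATP, ADP, UTP, UDP and UDP-glucose, which P2 receptors on macrophages read as danger signals. P2X receptors are ion channels opened by ATP. P2Y and adenosine receptors act through G proteins, with P2Y2 and P2Y6 raising calcium through phospholipase C and P2Y12, P2Y13 and P2Y14 coupling mainly to inhibitory G proteins that lower cyclic AMP. Surface enzymes turn ATP step by step into adenosine, which acts through its own receptors and generally dampens macrophage activation.

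Values are log2 signals, on which 1 unit is a 2-fold step, and signals of different genes are not set against each other because each probe set has its own brightness. Differences between groups (n = 2 arrays in each) are given on the log2 scale, ± SE of the limma fit, and a gene is said to rise or fall where its adjusted p over the 19938 genes was under 0.05. All 8 macrophage markers (Adgre1, Csf1r, Cd68, Itgam, Cd14, Fcgr1, Mertk and Lyz2) lay above the median untreated signal of all genes, and their mean per array ran from 11.46 to 11.97. By group it was 11.95 to 11.97 untreated, 11.89 to 11.91 under IFN-gamma/LPS, 11.88 to 11.93 under LPS/IL-4/IL-13 and lowest, 11.46 to 11.47, under IL-4/IL-13. Against untreated, 2 rose and 5 fell under IFN-gamma/LPS (51.9% of all genes were called) and likewise under LPS/IL-4/IL-13 (45.6%). Under IL-4/IL-13, 0 rose and 4 fell (20.2%). Group means untreated and under IL-4/IL-13 were 11.34 and 9.92 for Cd14 and 10.735 and 9.225 for Mertk. They lay closer for Itgam (10.81 and 10.345), Fcgr1 (10.89 and 10.56) and Adgre1 (12.88 and 12.835). The same held for Csf1r (12.94 and 12.88), Cd68 (12.805 and 12.765) and Lyz2 (13.27 and 13.185). Of the 9 mast cell and basophil markers 0 lay above that median, of the 6 dendritic cell markers 0, of the 5 microglia markers 1 (Cx3cr1) and of the 5 platelet and megakaryocyte markers 2. Above it were also 4 of 8 neutrophil markers, 3 of 6 of fibroblasts and endothelium, 1 of 6 of T and NK cells and 1 of 4 of B cells. The median of all genes stood 0.105 above untreated in IFN-gamma/LPS, 0.09 in LPS/IL-4/IL-13 and 0.07 in IL-4/IL-13. In RNA of a whole culture, fewer cells with a transcript and less transcript per cell cannot be told apart.

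IFN-gamma/LPS changed all 7 receptors against untreated cells, 4 upward (P2ry2, P2ry12, P2ry13, P2ry14) and 3 downward (P2rx4, P2rx7, P2ry6). The background was high, since 51.9% of all genes were called in this comparison, 23.6% as higher and 28.4% as lower. Changes of at least 2-fold were made by 6 of the 7 receptors, against 17.1% of all genes. LPS/IL-4/IL-13 changed 5 receptors, 2 upward (P2ry2, P2ry13) and 3 downward (P2rx4, P2rx7, P2ry12), where 45.6% of genes were called (20.3% higher, 25.4% lower), and 3 of the 5 changed at least 2-fold (13.9% of genes). IL-4/IL-13 changed 4 receptors, with P2ry6 higher and P2rx4, P2rx7 and P2ry13 lower, where 20.2% of genes were called (7.83% higher, 12.3% lower), and 0 receptors changed at least 2-fold (2.45% of genes). That count of 4 fell to 1, P2ry13, without untreated array 1 and likewise without untreated array 2, and to 2 without a variance trend. The 3 comparisons share the untreated arrays, so their values are not independent of each other. The median change of the 7 receptors was 1.15 under IFN-gamma/LPS, 0.01 under LPS/IL-4/IL-13 and -0.26 under IL-4/IL-13, against all-gene medians of 0.105, 0.09 and 0.07. With 4 receptors up and 3 down, the 1.15 is the value of P2ry14, the smallest of the 4 rises, and does not describe a shared rise.

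**Figure D1:**
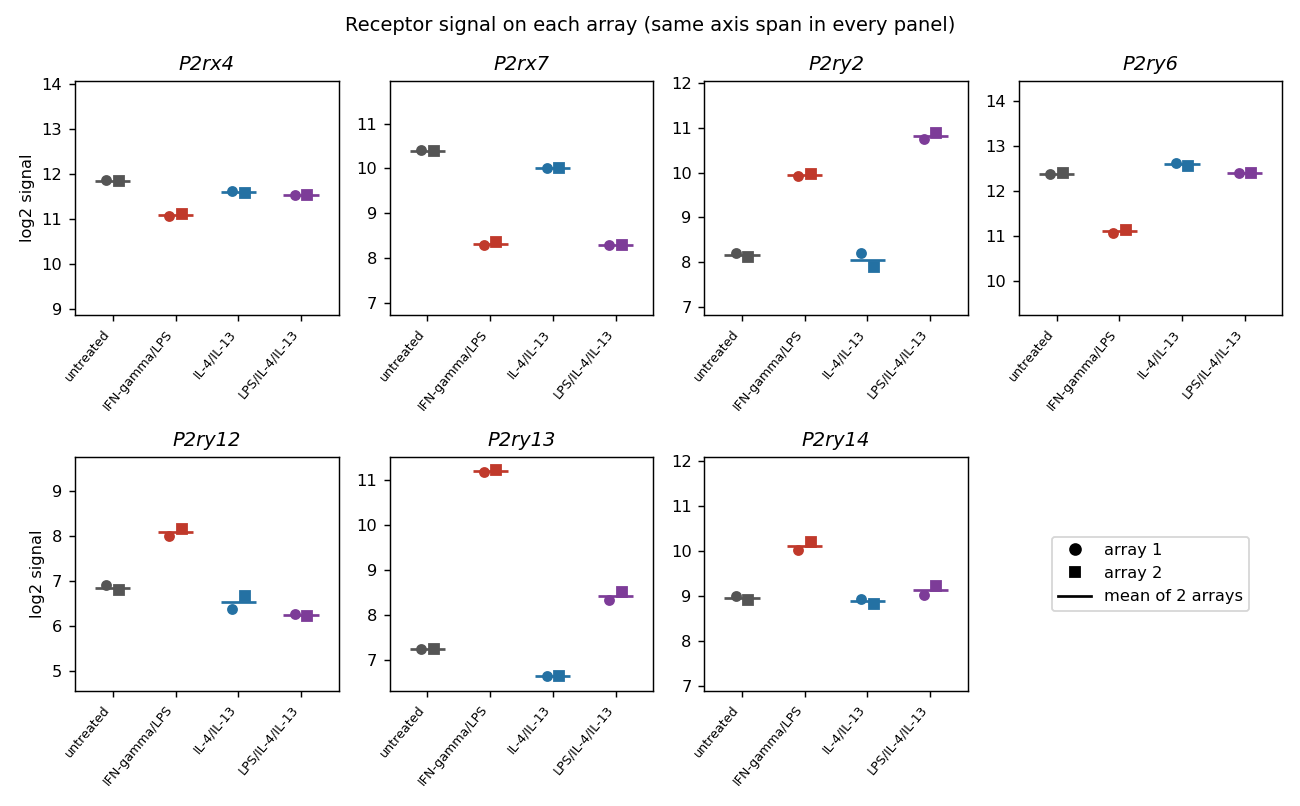
Log2 signal of each of the 7 receptors on every array (vertical axis) in the 4 groups (horizontal axis), with a circle for array 1, a square for array 2 and a bar for the group mean. P2ry13 stands highest on the IFN-gamma/LPS arrays (11.18 and 11.23), P2ry2 on the LPS/IL-4/IL-13 arrays (10.75 and 10.89), and P2rx7 is low on all 4 arrays with LPS.

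**Figure D2:**
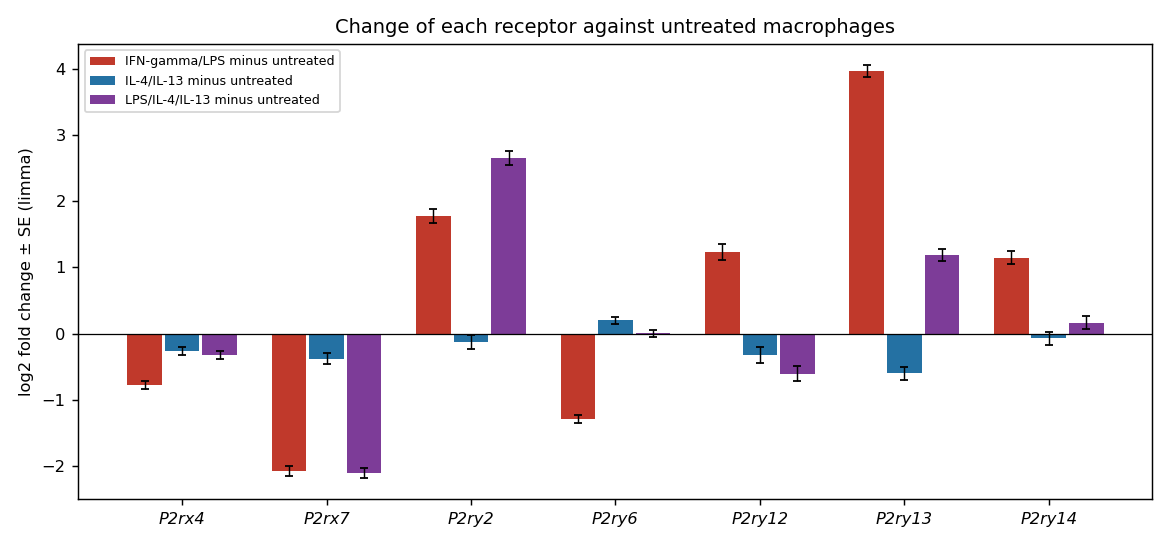
Log2 fold change of each receptor against untreated cells (vertical axis) for the 3 treatments (bar colours), with whiskers of 1 SE from limma. The tallest bar is P2ry13 under IFN-gamma/LPS (3.97), and P2ry12 goes up under IFN-gamma/LPS (1.24) and down under LPS/IL-4/IL-13 (-0.60).

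P2rx7 encodes the channel that opens at high extracellular ATP and triggers the NLRP3 inflammasome. Its signal was 10.4 and 10.39 on the untreated arrays, 8.3 and 8.36 under IFN-gamma/LPS, 10.02 and 10.02 under IL-4/IL-13, and 8.3 and 8.29 under LPS/IL-4/IL-13. All 4 arrays with LPS lay far below all 4 without it, while the 2 groups with LPS overlapped. P2rx7 fell 4.18-fold under IFN-gamma/LPS (adjusted p = 5.21e-10) and 4.29-fold under LPS/IL-4/IL-13 (log2 -2.10 ± 0.08, adjusted p = 5.82e-10). The difference between these 2 groups was -0.04 with a 95% interval from -0.21 to 0.14 (adjusted p = 0.858). IL-4/IL-13 lowered it by a small amount (-0.38 ± 0.08, adjusted p = 0.00501), a call that was lost without untreated array 1 (adjusted p = 0.0636) or array 2 (adjusted p = 0.0512). Adding LPS to IL-4/IL-13 went with a 3.31-fold fall (adjusted p = 3.75e-09).

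P2rx4, the ATP-gated channel next to P2rx7 on chromosome 5, moved in the same direction by less. Its signal was 11.86 and 11.85 in untreated cells, 11.06 and 11.11 under IFN-gamma/LPS, 11.63 and 11.57 under IL-4/IL-13, and 11.54 and 11.54 under LPS/IL-4/IL-13. Untreated arrays were highest, IFN-gamma/LPS arrays lowest, and the other 2 groups lay close together in between. It fell 1.71-fold under IFN-gamma/LPS (log2 -0.77 ± 0.06, adjusted p = 2.73e-07) and 1.24-fold under LPS/IL-4/IL-13 (adjusted p = 0.000768). The fall under IL-4/IL-13 was 1.19-fold (adjusted p = 0.00914), and this call was lost without untreated array 1 (adjusted p = 0.0888), untreated array 2 (0.0653), IL-4/IL-13 array 2 (0.0967) or a variance trend (0.0758). LPS/IL-4/IL-13 stood above IFN-gamma/LPS by 0.46 ± 0.06 (adjusted p = 0.000134). Against IL-4/IL-13 alone the difference was -0.06 (95% interval -0.19 to 0.07, adjusted p = 0.513), and it passed after quantile normalization (-0.17, adjusted p = 0.0362). In the RefSeq gene table P2rx4 overlaps Camkk2, a kinase gene read from the opposite strand, whose own probe set gave -0.02 ± 0.11 under IFN-gamma/LPS (adjusted p = 0.918) and rose by 0.51 ± 0.11 under LPS/IL-4/IL-13 (adjusted p = 0.00214).

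Of 12 genes that act with P2X7 in inflammasome activation and IL-1 release, 8 rose and 3 fell under IFN-gamma/LPS, and 8 rose and 4 fell under LPS/IL-4/IL-13, with list medians of 1.41 and 1.39 against all-gene medians of 0.105 and 0.09. The sensor gene Nlrp3, picked after its values were seen, had signals of 8.72 and 8.88 in untreated cells, 11.62 and 11.62 under IFN-gamma/LPS, 7.76 and 7.63 under IL-4/IL-13 and 11.24 and 11.37 under LPS/IL-4/IL-13. The cytokine genes Il1a (7.15 ± 0.15) and Il1b (4.51 ± 0.11), the caspase gene Casp4 (3.51 ± 0.11) and Il18 (3.10 ± 0.11) rose under IFN-gamma/LPS, and these 4 also rose under LPS/IL-4/IL-13. Nlrp3 rose by 2.82 ± 0.09 under IFN-gamma/LPS and fell under IL-4/IL-13 (-1.11 ± 0.09, adjusted p = 3.13e-06). Under IL-4/IL-13, 6 of the 12 fell and 1 rose. Beside these counts, 51.9% of all genes were called under IFN-gamma/LPS, 20.2% under IL-4/IL-13 and 45.6% under LPS/IL-4/IL-13. Kcnk6, a potassium channel gene linked to ATP-driven potassium efflux, fell under IFN-gamma/LPS (-2.14 ± 0.09) and LPS/IL-4/IL-13 (-1.06 ± 0.09) and rose under IL-4/IL-13 (1.07 ± 0.09), and it was picked after its values were seen.

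P2ry2, the receptor for ATP and UTP that promotes migration toward nucleotide-releasing cells, was highest when LPS was combined with IL-4 and IL-13. Its signal was 8.22 and 8.12 untreated, 9.93 and 9.97 under IFN-gamma/LPS, 8.21 and 7.89 under IL-4/IL-13, and 10.75 and 10.89 under LPS/IL-4/IL-13. The groups with LPS stood above both others and apart from each other, while untreated and IL-4/IL-13 arrays overlapped. P2ry2 rose 6.28-fold under LPS/IL-4/IL-13 (log2 2.65 ± 0.11, adjusted p = 1.28e-09) and 3.43-fold under IFN-gamma/LPS (1.78 ± 0.11, adjusted p = 3.6e-08). The 2 groups with LPS differed by 0.87 ± 0.11 (adjusted p = 0.000102), in a comparison where 19.7% of genes were called (12.1% higher, 7.62% lower) and 6 of the 7 receptors were. IL-4/IL-13 alone gave -0.12 (95% interval -0.36 to 0.12, adjusted p = 0.463).

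P2ry6, the UDP receptor tied to phagocytosis and chemokine release, lies beside P2ry2 on chromosome 7 and did not follow it. Signals were 12.38 and 12.39 untreated, 11.06 and 11.14 under IFN-gamma/LPS, 12.62 and 12.56 under IL-4/IL-13, and 12.39 and 12.39 under LPS/IL-4/IL-13. The IFN-gamma/LPS arrays stood apart below the other 6, which spanned 12.38 to 12.62. P2ry6 fell 2.44-fold under IFN-gamma/LPS (log2 -1.29 ± 0.06, adjusted p = 1.57e-09), whereas LPS/IL-4/IL-13 differed from untreated by 0.01 (95% interval -0.12 to 0.13, adjusted p = 0.95). LPS/IL-4/IL-13 stood 2.45-fold above IFN-gamma/LPS (adjusted p = 1.62e-08), rank 180 among the increases of 19938 genes. The rise under IL-4/IL-13 was 1.15-fold (0.21 ± 0.06, adjusted p = 0.0217), and it was lost when any 1 of the 4 arrays compared was left out (adjusted p between 0.0702 and 0.148), after median centring (0.0919) and without a variance trend (0.144). With LPS added to IL-4/IL-13 the signal was lower (-0.2 ± 0.06, adjusted p = 0.0122), a call that was lost without IL-4/IL-13 array 1 (adjusted p = 0.114), after quantile normalization (0.0778), after median centring (0.0956) and without a variance trend (0.121).

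P2ry12, P2ry13 and P2ry14 are neighbours on chromosome 3 and all rose under IFN-gamma/LPS. P2Y12 and P2Y13 bind ADP, the first best known from platelets and microglia, and P2Y14 binds UDP-glucose and UDP. The 250 bases before the annotated start of each gene are shown because these neighbours rose together. They come from RefSeq on build GRCm38.p6, all 3 genes are read from the minus strand, and for P2ry14, which has 4 annotated starts, the outermost is shown. Capitals mark matches to the motifs searched.
P2ry12, chr3:59262986-59263235: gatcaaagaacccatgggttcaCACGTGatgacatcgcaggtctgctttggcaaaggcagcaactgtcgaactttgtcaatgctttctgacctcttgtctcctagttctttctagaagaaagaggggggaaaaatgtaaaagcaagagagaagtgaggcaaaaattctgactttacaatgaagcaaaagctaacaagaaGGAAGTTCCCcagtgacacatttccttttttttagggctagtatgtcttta
P2ry13, chr3:59210883-59211132: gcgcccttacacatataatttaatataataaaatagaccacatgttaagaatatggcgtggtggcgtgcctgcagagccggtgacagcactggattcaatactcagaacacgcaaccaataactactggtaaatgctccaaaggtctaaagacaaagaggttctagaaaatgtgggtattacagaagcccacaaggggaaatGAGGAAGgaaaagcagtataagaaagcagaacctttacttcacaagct
P2ry14, chr3:59153493-59153742: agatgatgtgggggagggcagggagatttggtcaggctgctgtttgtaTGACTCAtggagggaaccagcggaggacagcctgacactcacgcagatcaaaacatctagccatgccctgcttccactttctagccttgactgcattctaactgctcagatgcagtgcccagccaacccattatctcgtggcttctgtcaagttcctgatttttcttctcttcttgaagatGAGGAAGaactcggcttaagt
In P2ry12 the capitals are CACGTG, which holds the HIF core ACGTG on both strands, and a kappa B match of 10 bases nearer the start. In P2ry13 they are a PU.1 match (GAGGAAG), and in P2ry14 an AP-1 match (TGACTCA) and a PU.1 match. A match is only a run of letters and not a measured binding site.

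The same search, on both strands, was run on all 11 windows of the 6 measured receptors in the RefSeq promoter table (P2ry6 has no entry there). The motifs were TTC and GAA with 4 bases between them (STAT6), TTCNNNGAA (GAS), GAAA and GAAA with 2 bases between (ISRE), GGG and TTCC with 3 bases between (kappa B), TGANTCA (AP-1), GAGGAAG (PU.1), TGACGTCA (CRE) and ACGTG (HIF core). Among 32851 windows of all genes, the kappa B letters occurred in 4.65%, PU.1 in 10.6%, AP-1 in 6.75% and the HIF core in 16.6%. STAT6 letters occurred in 5.85%, GAS in 7.02%, ISRE in 2.98% and CRE in 1.55% of all windows, and each of these 4 in 0 of the 11. AP-1 letters were in 3 of the 11 (P2rx7 and 2 starts of P2ry14), PU.1 in 2, HIF core in 2 (P2ry12 and P2ry2) and kappa B in 1. Some of these windows overlap, the STAT6, GAS and ISRE letters can overlap each other, and a missing match says only that these letters are not in the window.

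P2ry13 made the largest change of the 7 receptors. Its signal was 7.24 and 7.24 untreated, 11.18 and 11.23 under IFN-gamma/LPS, 6.64 and 6.65 under IL-4/IL-13, and 8.33 and 8.52 under LPS/IL-4/IL-13. The 4 groups did not overlap, in the order IFN-gamma/LPS, LPS/IL-4/IL-13, untreated, IL-4/IL-13, and every neighbouring pair in that order differed. It rose 15.6-fold under IFN-gamma/LPS (log2 3.97 ± 0.09, adjusted p = 1.18e-11), rank 105 among all genes, and 2.27-fold under LPS/IL-4/IL-13 (1.19 ± 0.09, adjusted p = 4.97e-07). IL-4/IL-13 lowered it 1.51-fold (-0.60 ± 0.09, adjusted p = 0.000762). LPS/IL-4/IL-13 was 6.87-fold below IFN-gamma/LPS (adjusted p = 2.95e-09), and only 12 of the 19938 genes lay lower in that comparison.

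P2ry12 changed in opposite directions in the 2 groups with LPS. Its signal was 6.9 and 6.79 untreated, 8 and 8.16 under IFN-gamma/LPS, 6.38 and 6.67 under IL-4/IL-13, and 6.26 and 6.23 under LPS/IL-4/IL-13. The IFN-gamma/LPS arrays stood above all others and the LPS/IL-4/IL-13 arrays below all others. It rose 2.35-fold under IFN-gamma/LPS (log2 1.24 ± 0.12, adjusted p = 2.33e-06) and fell 1.52-fold under LPS/IL-4/IL-13 (-0.60 ± 0.12, adjusted p = 0.00124). The direct difference between those groups was -1.84 ± 0.12 (adjusted p = 4.25e-07), the 68th lowest of all genes. The value for IL-4/IL-13 against untreated, -0.32 ± 0.12, did not pass (adjusted p = 0.0822), but it did without IL-4/IL-13 array 2 (0.0478) and when dim genes were filtered out (0.0472). With LPS added to IL-4/IL-13 the difference was -0.28 ± 0.12 (adjusted p = 0.0931), which passed without IL-4/IL-13 array 1 (0.0309).

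P2ry14 was higher under IFN-gamma/LPS than in each of the other 3 groups. Its signal was 9 and 8.91 untreated, 10.01 and 10.2 under IFN-gamma/LPS, 8.94 and 8.83 under IL-4/IL-13, and 9.03 and 9.21 under LPS/IL-4/IL-13. The 6 arrays outside IFN-gamma/LPS spanned 8.83 to 9.21. It rose 2.22-fold under IFN-gamma/LPS (log2 1.15 ± 0.1, adjusted p = 8.33e-07), and LPS/IL-4/IL-13 was 1.98-fold below IFN-gamma/LPS (adjusted p = 1.71e-05). Against untreated cells LPS/IL-4/IL-13 gave 0.17 (95% interval -0.05 to 0.38, adjusted p = 0.196) and IL-4/IL-13 gave -0.07 (95% interval -0.29 to 0.15, adjusted p = 0.651). LPS/IL-4/IL-13 stood 0.24 ± 0.1 above IL-4/IL-13, which did not pass (adjusted p = 0.0898) except without LPS/IL-4/IL-13 array 1 (0.0269).

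Other genes of this stretch of chromosome 3 were measured too. The genes described here lie in the order Clrn1, Med12l, Gpr171, P2ry14, P2ry13, P2ry12, Igsf10 and Gm5709. Gpr171, a further G protein-coupled receptor gene, had signals of 5.17 and 4.94 untreated, 6.42 and 6.84 under IFN-gamma/LPS, 4.93 and 5.01 under IL-4/IL-13, and 5.08 and 5.2 under LPS/IL-4/IL-13. It rose under IFN-gamma/LPS (1.58 ± 0.15, adjusted p = 1.65e-06) and gave a value that did not pass under LPS/IL-4/IL-13 (0.09 ± 0.15, adjusted p = 0.659). Med12l, which spans the 3 P2ry genes on the opposite strand, rose by 0.82 ± 0.10 under IFN-gamma/LPS (adjusted p = 2.74e-05) and by 0.46 ± 0.10 under LPS/IL-4/IL-13 (adjusted p = 0.00299). Clrn1, Igsf10 and Gm5709, at both ends of this order, did not pass in any of the 3 comparisons with untreated cells (adjusted p from 0.104 to 0.896). Within 3 protein-coding genes on each side of the 10 listed receptors, 34 other genes were measured, of which 6 rose and 13 fell under IFN-gamma/LPS, 3 rose and 5 fell under IL-4/IL-13, and 8 rose and 10 fell under LPS/IL-4/IL-13. Around the 7 measured receptors alone there were 17, of which 4 rose and 7 fell under IFN-gamma/LPS, 2 rose and 0 fell under IL-4/IL-13, and 4 rose and 5 fell under LPS/IL-4/IL-13. A shorter list of 12 measured neighbours, picked by hand, had the other balance, with 5 higher and 1 lower under IFN-gamma/LPS, 1 and 0 under IL-4/IL-13, and 4 and 1 under LPS/IL-4/IL-13. Among all genes 23.6% rose and 28.4% fell under IFN-gamma/LPS, 7.83% and 12.3% under IL-4/IL-13, and 20.3% and 25.4% under LPS/IL-4/IL-13. The share called among the 34 was thus close to that of all genes. Fam168a, which lies 3 genes from P2ry6 and was picked after its values were seen, had the lowest value of the 34 under IFN-gamma/LPS (-2.72, adjusted p = 6.19e-09). Fchsd2, near P2ry2 and P2ry6, rose in all 3 comparisons (0.55 ± 0.08, 1.45 ± 0.08 and 1.56 ± 0.08 in that order), and the calcium channel gene Orai1 of the shorter list fell under IFN-gamma/LPS (-1.12 ± 0.11, adjusted p = 2.43e-06). Arhgef17 passed in none of the 3.

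**Figure D3:**
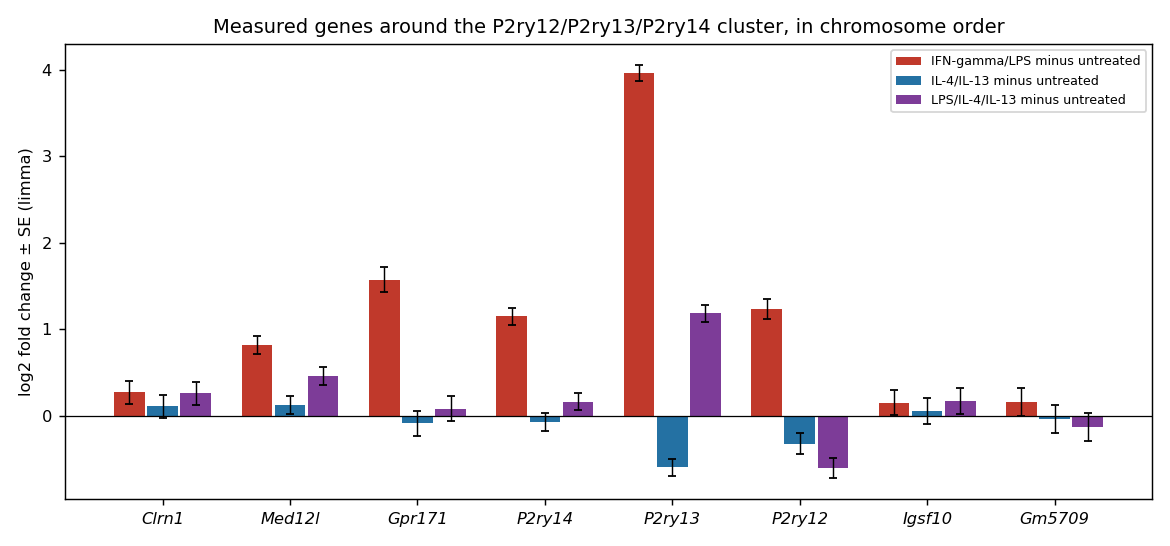
Log2 fold change against untreated cells (vertical axis, whiskers of 1 SE from limma) for measured genes in chromosome order around P2ry14, P2ry13 and P2ry12 (horizontal axis), with 1 bar colour per treatment. Med12l, Gpr171 and the 3 P2ry genes rise under IFN-gamma/LPS, while Clrn1, Igsf10 and Gm5709 stay within 0.28 of 0.

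Markers of other cell types moved beside these receptors in part. The mean signal of the 6 dendritic cell markers was 5.48 to 5.58 on untreated arrays, 6.81 to 6.85 under IFN-gamma/LPS, 5.73 to 5.84 under IL-4/IL-13 and 6.19 to 6.33 under LPS/IL-4/IL-13. Of those 6, 5 rose under IFN-gamma/LPS (23.6% of all genes rose) and 3 under LPS/IL-4/IL-13 (20.3%). Group means untreated and under IFN-gamma/LPS were 6.165 and 9.1 for Ccr7, 5.62 and 7.87 for Xcr1, and 4.885 and 6.57 for Clec9a. They lay closer for Zbtb46 (5.64 and 6.025), Cd209a (5.695 and 6.025) and Flt3 (5.15 and 5.38). All 6 were dim untreated, and whether the smaller rises go beyond a shift shared by dim probe sets was not tested. The part of dendritic cells in the P2ry12, P2ry13 and P2ry14 values was not tested. The 5 platelet and megakaryocyte markers averaged 6.75 to 6.79 under IFN-gamma/LPS, below the untreated 6.84 to 6.85, and 7.11 to 7.12 under LPS/IL-4/IL-13. Among these 5, Pf4 (-0.80) and Ppbp (-0.51) fell and Gp9 (0.41) rose under IFN-gamma/LPS, Itga2b (0.28) and Gp5 (0.23) did not pass, and the list's median change was 0.23 where its mean signal was lower. Pf4 (0.63) and Gp9 (0.41) rose under LPS/IL-4/IL-13. The 6 fibroblast and endothelial markers averaged 6.51 to 6.54 on untreated arrays, 6.87 to 6.93 under IFN-gamma/LPS, 6.87 to 6.93 under IL-4/IL-13 and 6.98 to 7.04 under LPS/IL-4/IL-13, so no treated group overlapped untreated. Of them Dcn (1.37), Pdgfrb and Cdh5 rose and Pecam1 fell under IFN-gamma/LPS, Pecam1 (2.27) rose under IL-4/IL-13, and Dcn (1.75) and Cdh5 rose under LPS/IL-4/IL-13. The 8 neutrophil markers averaged 6.33 to 6.34 untreated, 6.16 to 6.2 under IFN-gamma/LPS, 6.38 to 6.43 under IL-4/IL-13 and 6.28 to 6.31 under LPS/IL-4/IL-13. Of them 0 rose and 2 fell under IFN-gamma/LPS (51.9% of all genes were called), and 1 rose and 0 fell under IL-4/IL-13 (20.2%). Under LPS/IL-4/IL-13, 2 rose and 2 fell (45.6%). In that group S100a8 read 6.99 and 6.18 (mean 5.43 untreated), and Ngp read 7.83 and 8.56 (mean 9.095 untreated). The 4 B cell markers averaged 5.29 to 5.34 untreated, 5.08 to 5.13 under IFN-gamma/LPS, where Cd79b fell (-1.12), 5.33 to 5.43 under IL-4/IL-13 and 5.45 to 5.63 under LPS/IL-4/IL-13. The 6 T and NK cell markers averaged 5.38 to 5.59 over all 8 arrays, with opposite changes inside the list. Of them 1 rose and 1 fell under IFN-gamma/LPS (51.9% of all genes were called) and likewise under IL-4/IL-13 (20.2%). Under LPS/IL-4/IL-13, 0 rose and 1 fell (45.6%). Cd4 had group means of 8.235 untreated, 7.28 under IFN-gamma/LPS, 7.35 under IL-4/IL-13 and 7.195 under LPS/IL-4/IL-13. For the dim Ncr1 they were 3.88, 4.34, 4.325 and 4.165. The part of these cell types in the receptor values was not tested. The 5 microglia markers averaged 5.86 to 5.99 over all 8 arrays and the 9 mast cell and basophil markers 5.11 to 5.32. Within the microglia list, Cx3cr1 had group means of 7.555 untreated and 6.71 under IFN-gamma/LPS, and Sall1 went the other way, 5.4 and 5.99. The mast cell and basophil mean was 5.11 to 5.14 untreated and 5.27 to 5.30 under IFN-gamma/LPS, where 2 of the 9 rose and 0 fell.

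In the direct comparison of IFN-gamma/LPS with the IL-4/IL-13 group all 7 receptors were called (41.6% of genes, 15.5% higher and 26.1% lower), and 6 of them differed at least 2-fold (15.2% of genes), with P2ry2, P2ry12, P2ry13 and P2ry14 higher and P2rx4, P2rx7 and P2ry6 lower. P2ry13 differed 23.6-fold (log2 4.56 ± 0.09, adjusted p = 5.35e-12), rank 60 among the increases. P2ry2 was 3.73-fold, P2ry12 2.94-fold and P2ry14 2.33-fold higher. P2rx7 was 3.23-fold, P2ry6 2.81-fold and P2rx4 1.43-fold lower. Adding LPS to IL-4/IL-13 changed 4 of the 7 (36.7% of genes called, 14.1% higher and 22.6% lower), 3 of them at least 2-fold (11.2% of genes). P2ry2 rose 6.82-fold (adjusted p = 1.07e-09), P2ry13 rose 3.43-fold (adjusted p = 1.49e-08), and P2rx7 and P2ry6 fell. Between the groups with LPS, LPS/IL-4/IL-13 had 3 receptors higher (P2rx4, P2ry2, P2ry6) and 3 lower (P2ry12, P2ry13, P2ry14), P2rx7 did not pass, and 3 differed at least 2-fold (3.32% of genes). These comparisons share arrays with those against untreated cells.

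Other receptors of these families, or named with them, were led by P2ry1 and P2ry10b. Of 10 measured, 2 rose under IFN-gamma/LPS, 2 rose and 1 fell under IL-4/IL-13, and 2 rose and 1 fell under LPS/IL-4/IL-13, with list medians of 0.24, 0.24 and 0.20. All-gene medians were 0.105, 0.07 and 0.09, and 51.9%, 20.2% and 45.6% of all genes were called. The 2 that rose in each group with LPS were P2ry10b and P2ry10. P2ry1, an ADP receptor coupled to phospholipase C, had signals of 7.1 and 7.01 untreated, 7.08 and 7.2 under IFN-gamma/LPS, 8.79 and 8.66 under IL-4/IL-13, and 6.73 and 6.61 under LPS/IL-4/IL-13. The IL-4/IL-13 arrays stood alone at the top. P2ry1 rose 1.67 ± 0.10 under IL-4/IL-13 (adjusted p = 4.2e-07), and with LPS added the signal was lower than under IL-4/IL-13 (-2.06 ± 0.10, adjusted p = 9.57e-09) and lower than untreated (-0.39 ± 0.10, adjusted p = 0.00926). P2ry10b, like P2ry10 a relative of lysophospholipid receptors, rose under LPS/IL-4/IL-13 (1.47 ± 0.09) and IFN-gamma/LPS (0.79 ± 0.09) and fell under IL-4/IL-13 (-0.39 ± 0.09, adjusted p = 0.0111). P2ry10 rose by 0.32 to 0.47 in all 3 comparisons, at adjusted p = 0.0496 under IFN-gamma/LPS, from dim signals of 3.54 and 3.57 untreated. Only P2ry1 and P2ry10b, 2 of the 10, lay above the median untreated signal of all genes. P2rx2, P2rx3, P2rx5, P2rx6, P2ry4 and Gpr17, all dim, also had their lowest group mean untreated, and P2rx1 did not. Whether the P2ry10 rise and the list medians go beyond a shift shared by dim probe sets was not tested. Gpr17 and P2rx1 passed in none of the 3.

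The enzymes that break down nucleotides and handle adenosine were led by Pnp and Entpd1. Of 12 measured, 5 rose and 2 fell under IFN-gamma/LPS, 3 rose and 3 fell under IL-4/IL-13, and 5 rose and 3 fell under LPS/IL-4/IL-13. The shares of all genes called in these comparisons were 51.9%, 20.2% and 45.6%. Entpd1, the CD39 enzyme that strips phosphates from ATP and ADP, had signals of 11.67 and 11.62 untreated, 10.22 and 10.35 under IFN-gamma/LPS, 10.76 and 10.8 under IL-4/IL-13, and 9.46 and 9.41 under LPS/IL-4/IL-13. The groups did not overlap, and LPS/IL-4/IL-13 was lowest. Entpd1 fell under LPS/IL-4/IL-13 (-2.21 ± 0.07, adjusted p = 1.96e-10), under IFN-gamma/LPS (-1.36 ± 0.07) and under IL-4/IL-13 (-0.87 ± 0.07). Pnp, purine nucleoside phosphorylase, rose 2.89 ± 0.08 under IFN-gamma/LPS and 2.82 ± 0.08 under LPS/IL-4/IL-13, and 0.57 ± 0.08 under IL-4/IL-13 (adjusted p = 0.000211). Bst1, a surface enzyme acting on NAD, rose by 2.12 ± 0.14 and 2.08 ± 0.14 in the groups with LPS and fell under IL-4/IL-13 (-0.53 ± 0.14). Dpp4 rose under IFN-gamma/LPS (0.76 ± 0.14), while Alpl and Enpp3 passed in none of the 3. Nt5e, the CD73 enzyme that makes adenosine from AMP, and Ada, which removes adenosine, were added after their values were seen. Nt5e rose by 0.35 ± 0.12 under IFN-gamma/LPS (adjusted p = 0.0248) and 0.33 ± 0.12 under LPS/IL-4/IL-13 (adjusted p = 0.0389). Under IL-4/IL-13 it gave 0.245 ± 0.12, which did not pass (adjusted p = 0.165). Nt5e was dim, below the median untreated signal of all genes, and had its lowest group mean untreated. The same held for Entpd2, Entpd3, Entpd8, Enpp3, Alpl and Dpp4. Whether the Nt5e rise and the list counts go beyond a shift shared by dim probe sets was not tested. Ada fell under LPS/IL-4/IL-13 (-0.49 ± 0.11, adjusted p = 0.00251).

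Channels and transporters for nucleotides and nucleosides were led by Calhm6, Slc28a2 and Gja1. Of 13 measured, 4 rose and 6 fell under IFN-gamma/LPS, 2 rose and 2 fell under IL-4/IL-13, and 4 rose and 6 fell under LPS/IL-4/IL-13. Called among all genes were 51.9%, 20.2% and 45.6% in these comparisons. Calhm6, of a family of large-pore channels, had signals of 6.79 and 6.72 untreated, 11.05 and 10.96 under IFN-gamma/LPS, 6.71 and 6.62 under IL-4/IL-13, and 9.77 and 9.82 under LPS/IL-4/IL-13. It stood lower under LPS/IL-4/IL-13 than under IFN-gamma/LPS (-1.21 ± 0.09, adjusted p = 1.21e-06), the direction P2ry13 also took. Slc28a2, a sodium-coupled purine nucleoside carrier, rose 4.18 ± 0.09 under LPS/IL-4/IL-13 and 3.52 ± 0.09 under IFN-gamma/LPS and fell under IL-4/IL-13 (-0.65 ± 0.09, adjusted p = 0.00038). Gja1, a connexin gene whose hemichannels can release ATP, rose in all 3 comparisons (3.82 ± 0.10 under IFN-gamma/LPS, 1.28 ± 0.10 under IL-4/IL-13 and 4.08 ± 0.10 under LPS/IL-4/IL-13). Calhm2 fell in the groups with LPS (-2.46 ± 0.11 and -1.71 ± 0.11). Panx1, the pannexin channel gene, passed in none of the 3, nor did Slc28a3.

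**Figure D4:**
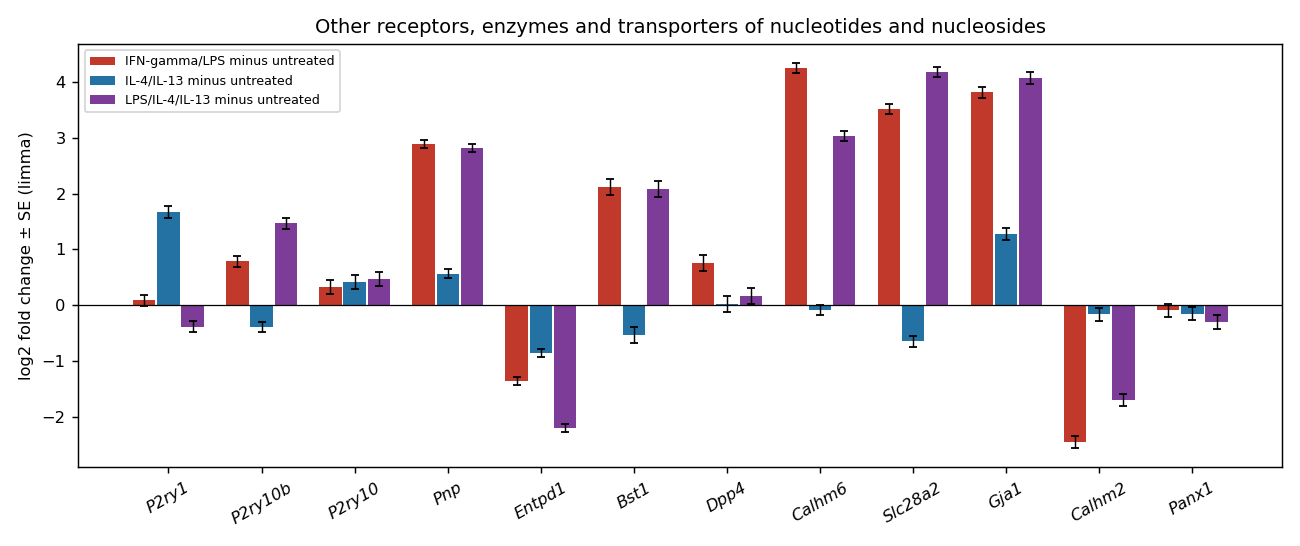
Log2 fold change against untreated cells (vertical axis, whiskers of 1 SE from limma) for receptors, enzymes, channels and transporters of nucleotides and nucleosides (horizontal axis). Each treatment has 1 bar colour. The genes shown are a part of those named by rule. Gpr17, P2rx1, Alpl, Enpp3 and Slc28a3, which passed in none of the 3 comparisons, are not shown, and Panx1 is the only such gene shown. P2ry1 rises under IL-4/IL-13 (1.67), Entpd1 falls in all 3, and Slc28a2 and Gja1 rise above 3.5 in both groups with LPS. P2ry10b and P2ry10 are relatives of lysophospholipid receptors.

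Among 21 measured genes of G proteins and the cyclic AMP and phospholipase C branches, 6 rose and 8 fell under IFN-gamma/LPS, 3 rose and 5 fell under IL-4/IL-13, and 7 rose and 9 fell under LPS/IL-4/IL-13. In these comparisons 51.9%, 20.2% and 45.6% of all genes were called. The adenylate cyclase genes Adcy7 (-2.59 ± 0.10) and Adcy9 (-2.47 ± 0.10), which make cyclic AMP, and the kinase subunit gene Prkacb (-1.85 ± 0.09) fell under IFN-gamma/LPS. They also fell under LPS/IL-4/IL-13 (-1.85 ± 0.10, -2.17 ± 0.10 and -1.81 ± 0.09). Pde4b, which degrades cyclic AMP, rose by 2.00 ± 0.09 and 1.96 ± 0.09 in the 2 groups with LPS. Adcy4 and Adcy6 passed in none of the 3 comparisons.

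For the 6 receptors whose group means spanned at least 1 log2 unit, the nearest genes were ranked by the root mean square difference over the 8 arrays after each gene was centred on its own mean. P2rx7 was nearest to Fam234a (0.054), Paqr7 (0.066) and Zfp770 (0.073), and P2ry6 to Tlr8 (0.073), Sh3tc1 (0.092) and Zfp385a (0.137). The nearest to P2ry2 were Osm (0.141), Dtx2 (0.16) and Map2k4 (0.182). P2ry12 had Stimate and Wdr62 (both 0.108) and Akna (0.121), and P2ry14 had Tnfsf8 and Kmt2a (both 0.084) and Dubr (0.095). P2ry13 had Gm4841 (0.141), D16Ertd472e (0.267) and Klrk1 (0.311). None of the 18 genes is another receptor of the list, and the arrays behind all these distances are the same 8.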

How the data were processed

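Total RNA of each of 8 samples was hybridised to 1 Affymetrix MoGene-1_0-st-v1 array, per the labels. The deposited values, 1 for each probe set on each array, run from 1.46 to 13.71 and were read as log2 signal; the labels name the columns as a MAS5 signal, and the authors' background correction and normalization were not given in the sources used here. Detection calls were not used here, so no level marks a gene as absent, and 2 arrays per group limit the precision. Of 35556 probe sets, 21789 had 1 symbol, 1621 several and 12146 none. The brightest probe set over all arrays stood for a gene.

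A single model of the 4 groups was fitted to 19938 genes with limma 3.58.1 in R 4.3.3 (eBayes with a mean-variance trend, 4 residual and 7.55 prior degrees of freedom), and each of 6 comparisons was adjusted by Benjamini-Hochberg over all genes. The script was checked on simulated data. Alternatives were a filter at the 40th percentile of mean signal (which all 7 receptors passed), quantile normalization, centring on medians, 2 other variance models, the replicate number as a block, a fit of the compared arrays alone, averaged probe sets, each array left out and, chosen after the data were seen, a fit over all probe sets. The receptors and gene lists were chosen with earlier results of these data known. All receptors are named; from each list up to 4 genes with the largest called change from untreated and up to 2 that passed in none of those 3 comparisons are named, with exceptions marked. Promoter windows come from RefSeq on GRCm38.p6.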

Additional observations from a re-analysis of the deposited data

Results flagged for a closer look

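One probe set that names a listed receptor lay outside all comparisons, because the annotation gives it to both Tmigd3 and Adora3. Its signal rose above the untreated level in both groups with LPS, by more under LPS/IL-4/IL-13. It read 6.77 and 6.84 untreated, 7.32 and 7.28 under IFN-gamma/LPS, 6.56 and 6.61 under IL-4/IL-13, and 9.7 and 9.87 under LPS/IL-4/IL-13. In a limma fit over all 35556 probe sets it was 2.98 ± 0.10 higher under LPS/IL-4/IL-13 than untreated on the log2 scale, 7.89-fold (adjusted p = 4.6e-07), 2.49 ± 0.10 higher than under IFN-gamma/LPS (adjusted p = 1.14e-05) and 3.20 ± 0.10 higher than under IL-4/IL-13 (adjusted p = 4.34e-07). In that fit the shared probe set stood 0.495 ± 0.10 above untreated under IFN-gamma/LPS (adjusted p = 0.00432). Under IL-4/IL-13 it gave -0.22 ± 0.10 against untreated, which did not pass (adjusted p = 0.198). A separate probe set of Tmigd3 alone read 4.35 and 4.32 untreated and 4.48 and 4.67 under LPS/IL-4/IL-13 (0.24 ± 0.13, adjusted p = 0.158). The signal of the shared probe set cannot be assigned to either gene from these values.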

How the results depend on the processing

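Of 42 tests (7 receptors in 6 comparisons), 33 passed, and 32 of the 42 kept their direction and their side of the threshold under all 17 alternatives. The count of receptors called in IL-4/IL-13 against untreated, 4, was 2 without a variance trend and ranged from 1 to 4 when an array was left out. It was 1 without untreated array 1 or untreated array 2. In the other 5 comparisons the count stayed within 1 of its value. Signs turned only in values that did not pass: P2ry2 under IL-4/IL-13 against untreated ranged from -0.28 to 0.04 when an array was left out (0.04 without IL-4/IL-13 array 2), and P2ry14 in that comparison was 0.024 after quantile normalization. The cause was not tested. With the replicate number as a block the count in IL-4/IL-13 against untreated was 4, and the block changed 0 of the 42 calls. Deviations of same-numbered arrays correlated between -0.36 and 0.22 over the 6 pairs of groups, so the numbers were not taken as pairs. Calls moved only for log2 differences between -0.38 and 0.24 in the fit reported.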
